A study of Mus musculus with 10 samples.

Results

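The long noncoding RNA genes expressed in 2 populations of small intestinal epithelial cells were compared, namely GUCY2Chi cells and GUCY2Cmed cells. Members were the autosomal genes that the deposited table assigns to 1 of 7 noncoding biotypes and that had at least 3 cpm (counts scaled to the library total), averaged over the 10 libraries. This rule kept 170 of 8949 autosomal genes with such a biotype, and the table lists 54532 genes in all. Of the 170, 69 are lincRNA genes, of which 10 overlap a coding gene by position, 44 are antisense genes, 41 are processed transcripts without an open reading frame in the annotation, 15 are transcribed from a promoter shared with a coding gene, and 1 is sense intronic. RefSeq, an independent annotation, lists 130 of the 170 as lncRNA, 15 as protein-coding and 3 as pseudogenes, while 22 had no entry that overlapped under their name. Cct6a, Anxa13, Ifi30, Tmem134, 1810058I24Rik, Tctn2, Ptpmt1 and 6330403K07Rik, all named below, are among the 15. The members were chosen by their measured level, so the levels are given as a description. A level of 3 cpm stands for between 32.7 and 45.9 counts per library. The 3 members just inside that limit were Gm16124 (3.01 cpm), 1700008J07Rik (3.03 cpm) and 1700065O20Rik (3.04 cpm), and the 3 genes just outside were 1110018N20Rik and B930095G15Rik (both 2.95 cpm) and 3010003L21Rik (2.92 cpm).

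Long noncoding RNAs are transcripts that are not translated into a known protein. Some, such as Malat1 and Neat1, stay in the nucleus and associate with speckles and paraspeckles. Others are read from the opposite strand of a coding gene or from the other side of its promoter, and their transcription can accompany or silence that of the neighbor, as Airn does at the imprinted Igf2r locus. Many are made in a narrow range of cell types, and the endocrine lineages of gut and pancreas have their own sets.

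Cells came from the small intestine of 5 litter-matched Gucy2c-GFP mice of the CD1/ICR strain, aged 10 weeks, in which GFP reports activity of the Gucy2c promoter. GUCY2C is a receptor for the gut hormones guanylin and uroguanylin. From each mouse, 20000 cells with high GFP and 20000 with medium GFP were sorted, giving 5 GUCY2Chi and 5 GUCY2Cmed libraries, numbered 2, 7, 12, 14 and 15 in both groups. All mice carried the reporter and received no treatment, and neither gate is a pure cell type. Libraries held between 10903958 and 15307932 counts on genes. Gucy2c had 548 to 1756 cpm in GUCY2Chi libraries and 322 to 483 cpm in GUCY2Cmed libraries. Of 18 enteroendocrine markers 17 rose in GUCY2Chi cells, and their summed level was 32425 to 120552 cpm against 109 to 544 cpm. Of 16 enterocyte markers 4 fell, with sums of 3540 to 33216 cpm against 60582 to 79581 cpm. The 2 GUCY2Chi libraries of mice 12 and 15 held 32776 and 33216 cpm of enterocyte markers, against at most 4643 cpm in the other 3. Of 14 proliferation markers 12 fell, all 3 tested of 6 mesenchyme and endothelium markers rose (25.4 to 230 cpm against 0.802 to 3.08 cpm), 2 of 15 forebrain neuron markers rose, and 1 marker each rose on the tuft, oligodendrocyte and enteric neuron lists. No goblet, Paneth, stem, astrocyte, T cell, myeloid and B cell, enteric glia or erythrocyte marker passed the threshold. Forebrain neuron RNA also differed between libraries within both groups, as described at the end. In such sorted bulk samples, a change in the share of a cell type and a change in RNA per cell cannot be told apart.

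Sequence was examined at the 5′ ends of the members before their levels. RefSeq promoters on build GRCm38.p6, from 250 bases before to 50 bases after the transcription start, were matched for 127 of the 170 members, and 105 of these starts lay within 500 bases of the start in the deposited table. These 105 covered 22 of the 46 members called higher in GUCY2Chi cells, 6 of the 9 called lower and 77 of the 115 not called. CpG dinucleotides were counted in each promoter. The median count was 24 per promoter in the 77 members that were not called between the groups, 11.5 in the 22 that were higher in GUCY2Chi cells and 12.5 in the 6 that were lower, against 7 over all 32851 promoters of the reference. At least 15 CpGs were present in 64.9%, 36.4% and 33.3% of the 3 sets and in 34.6% of all promoters. Of the 46 higher members, 38 reached 3 cpm only through GUCY2Chi cells, so no link between CpG content and the calls is read from these counts. The following 3 promoters of members higher by over 8 on the log2 scale show a range of CpG counts, with each CpG in capitals. They lie at chr11:84525410-84525709 on the plus strand (Lhx1os, 33 CpGs), chr2:105670281-105670580 on the minus strand (Pax6os1, 13 CpGs) and chr13:103707584-103707883 on the minus strand (Gm30551, 2 CpGs).
Lhx1os: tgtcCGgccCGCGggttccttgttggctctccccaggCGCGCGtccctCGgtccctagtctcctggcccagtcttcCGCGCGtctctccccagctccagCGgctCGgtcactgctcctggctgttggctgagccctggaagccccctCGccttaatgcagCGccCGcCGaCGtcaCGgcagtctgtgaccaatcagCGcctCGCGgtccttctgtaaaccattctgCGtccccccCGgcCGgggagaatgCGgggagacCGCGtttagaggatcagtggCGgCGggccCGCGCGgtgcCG
Pax6os1: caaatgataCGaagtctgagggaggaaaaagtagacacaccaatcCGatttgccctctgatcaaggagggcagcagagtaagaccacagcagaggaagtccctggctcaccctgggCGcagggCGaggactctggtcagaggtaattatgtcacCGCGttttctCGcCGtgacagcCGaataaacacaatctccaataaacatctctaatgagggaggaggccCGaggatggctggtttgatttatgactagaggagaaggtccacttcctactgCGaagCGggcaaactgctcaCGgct
Gm30551: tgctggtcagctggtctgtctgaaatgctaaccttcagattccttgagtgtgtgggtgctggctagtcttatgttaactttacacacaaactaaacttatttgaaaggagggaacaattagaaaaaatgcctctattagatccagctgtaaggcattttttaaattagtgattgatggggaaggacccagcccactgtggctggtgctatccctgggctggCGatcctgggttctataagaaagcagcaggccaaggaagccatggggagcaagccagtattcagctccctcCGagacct

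The same promoters were searched on both strands for 5 short motifs. They were the core promoter element TATAAA, the E-box CAGATG of basic helix-loop-helix factors, TGTTTAC of forkhead factors, CAAAGTC of HNF4 and TTTATGG of the CDX family. CAGATG was found in 5 of 22 higher members (22.7%), 1 of 6 lower members and 11.7% of the members not called, against 17.2% of all promoters. CAAAGTC was found in 2 of 6 lower members, 0610005C13Rik and 1810034E14Rik, and in none of the 22 higher members. It was in 3.90% of the members not called and in 4.44% of all promoters. Those not called were Hnf4aos, 6330403K07Rik and A930005H10Rik, with log2 fold changes (GUCY2Chi over GUCY2Cmed) of -1.93, 0.13 and -0.07. A930005H10Rik is named for its motif only. TATAAA stood in 2 of 22 higher promoters, 2610035D17Rik and Airn, and in 13.6% of all promoters. TGTTTAC and TTTATGG were in no higher or lower member and in 3.65% and 2.75% of all promoters. A match is a description of the letters and not a binding site. The next sequences show the E-box and the HNF4 motif in capitals. The E-box, which reads on the other strand, is in 1810006J02Rik, a member near the Pam gene. The HNF4 motif is shown in the 2 lower members and in Hnf4aos, which was not called. The match begins 191 bases before the start in 1810006J02Rik (chr1:98131217-98131516, plus strand), 42 before it in 0610005C13Rik (chr7:45575127-45575426, minus strand, a RefSeq start 151 bases from that of the table), 142 before it in 1810034E14Rik (chr13:64248450-64248749, plus strand) and 51 before it in Hnf4aos (chr2:163541672-163541971, minus strand).
1810006J02Rik: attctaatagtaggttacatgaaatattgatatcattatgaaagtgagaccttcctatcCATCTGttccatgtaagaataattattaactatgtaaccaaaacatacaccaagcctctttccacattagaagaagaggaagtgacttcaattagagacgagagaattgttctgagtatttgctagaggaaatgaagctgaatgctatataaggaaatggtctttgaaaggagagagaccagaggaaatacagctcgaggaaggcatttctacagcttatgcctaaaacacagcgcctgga
0610005C13Rik: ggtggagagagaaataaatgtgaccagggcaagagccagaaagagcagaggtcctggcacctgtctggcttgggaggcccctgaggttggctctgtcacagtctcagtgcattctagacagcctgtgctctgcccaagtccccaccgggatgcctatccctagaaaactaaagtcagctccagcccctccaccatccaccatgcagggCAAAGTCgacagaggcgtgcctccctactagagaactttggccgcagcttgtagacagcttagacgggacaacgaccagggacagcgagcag
1810034E14Rik: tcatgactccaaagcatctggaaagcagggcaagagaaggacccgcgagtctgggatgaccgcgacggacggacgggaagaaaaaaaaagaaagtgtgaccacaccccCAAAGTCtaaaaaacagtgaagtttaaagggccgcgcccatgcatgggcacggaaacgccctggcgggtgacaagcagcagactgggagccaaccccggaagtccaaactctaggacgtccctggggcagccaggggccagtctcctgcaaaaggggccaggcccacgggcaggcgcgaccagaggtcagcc
Hnf4aos: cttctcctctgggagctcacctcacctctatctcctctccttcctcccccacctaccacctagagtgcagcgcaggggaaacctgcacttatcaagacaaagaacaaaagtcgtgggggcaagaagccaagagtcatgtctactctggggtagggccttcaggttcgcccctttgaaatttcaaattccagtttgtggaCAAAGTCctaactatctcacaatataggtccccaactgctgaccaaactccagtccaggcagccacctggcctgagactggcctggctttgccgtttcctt

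Among the 170 members, 46 were higher and 9 were lower in GUCY2Chi than in GUCY2Cmed cells (edgeR quasi-likelihood test, Benjamini-Hochberg adjusted p under 0.01 over all 15703 genes tested). Over all genes tested, 13.9% were higher and 8.79% lower at this threshold. Among 10580 autosomal protein-coding genes held to the same level of 3 cpm, 13.8% were higher and 12.1% lower. The level rule itself admits genes that are high in 1 group, and 65 members reached 3 cpm only through GUCY2Chi cells, 38 of them called higher. Of the 94 members with at least 3 cpm in both groups, 8 were higher and 7 lower. All 46 higher members were higher in 5 of 5 same-numbered pairs of libraries and all 9 lower ones were lower in 5 of 5. The groups did not overlap for 53 members above and 17 members below GUCY2Cmed libraries, against 16.7% and 13.2% of all genes tested. The median log2 fold change was 0.38 over the members and 0.09 over all genes tested, with TMM scaling. Without TMM, on library size alone, the median over all genes moved to 0.39 and the calls among members to 59 higher and 1 lower, so that 98.3% of called members were higher, against 83.6% with TMM. With the mouse as a block in edgeR, 35 members were higher and 2 lower, beside 8.24% and 4.96% of all genes.

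**Figure D1:**
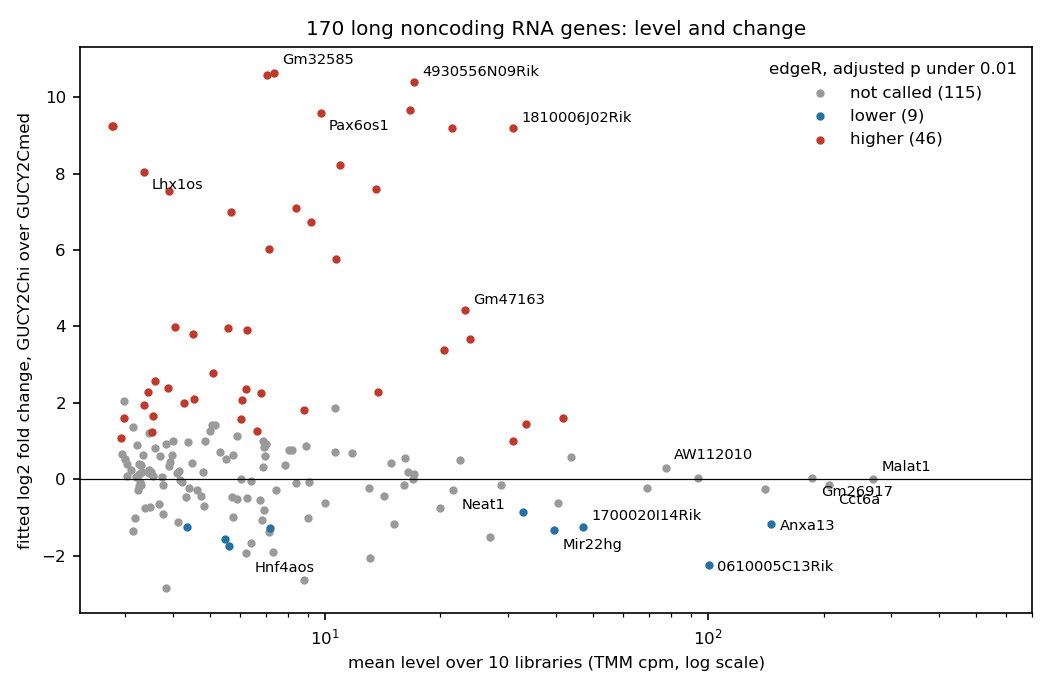
Fitted log2 fold change (GUCY2Chi over GUCY2Cmed) of each of the 170 members against its mean level over 10 libraries in TMM cpm on a log axis. Each point is 1 gene; the 46 higher members lie at levels below 50 cpm, while the most abundant members, Malat1, Cct6a and Gm26917, lie near 0.

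The 12 higher members with the largest fitted changes were close to absent from GUCY2Cmed libraries. Gm32585, a lincRNA gene at chr5:125238314-125272815, had 9.34, 13.7, 31.5, 12.3 and 6.73 TMM cpm in the GUCY2Chi libraries of mice 2, 7, 12, 14 and 15 and no count in any GUCY2Cmed library. It was at least 295-fold higher, computed against a floor of 3 counts over the GUCY2Cmed group (adjusted p = 0.000152). Gm40653, at chr13:3273235-3282998, had 20.6, 15.6, 7.49, 22.1 and 4.78 cpm in GUCY2Chi cells, again against no count, and was at least 289-fold higher. Every GUCY2Chi library of both genes lay above every GUCY2Cmed library, with mouse 12 highest for Gm32585 and mouse 15 lowest for both. By the same floor, 1700065O20Rik was at least 114-fold and Prr33 at least 116-fold higher. Prr33 rested on fewer libraries: it had 5.58, 10.8 and 9.71 cpm in mice 2, 7 and 14 but 0.151 cpm in mouse 12 and 1.51 cpm in mouse 15. Its adjusted p of 0.0045 rose to 0.0115 without the GUCY2Chi library of mouse 2, and to 0.0111, 0.0109 and 0.0104 without the GUCY2Chi libraries of mice 7 and 14 and the GUCY2Cmed library of mouse 15.

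4930556N09Rik, a lincRNA gene at chr10:97035768-97061059, stands far from any coding gene, 412959 bp from Btg1. It had 23.6, 26.1, 49.0, 56.8 and 14.7 cpm in GUCY2Chi cells and a single count in GUCY2Cmed cells, in mouse 12. The ratio was 2027, with an exact 95% counting interval from 364 to 80108 that covers counting error only (adjusted p = 3.76e-06). Gm32255 had 33.3 ± 21.6 cpm (SD, n = 5) and 2 GUCY2Cmed counts, a ratio of 1006 (counting interval 278 to 8316). These genes were thus seen in all 5 GUCY2Chi libraries and in at most 1 GUCY2Cmed library. 1810006J02Rik was the most abundant of the 12, with 59.3, 84.6, 77.7, 63.5 and 24.0 cpm in GUCY2Chi libraries and at most 0.3 cpm in GUCY2Cmed libraries. Its log2 fold change was 9.19 (SE 0.67, adjusted p = 5.2e-06). Gm30551, at chr13:103591395-103707633, had 42.9 ± 26.8 cpm against 0.0642 ± 0.0882 cpm, Gm35409 21.8 ± 14.5 against 0.0594 ± 0.0977 cpm, and Gm13373 27.1 ± 16.4 against 0.133 ± 0.176 cpm. The fitted log2 fold changes of these 3, 9.18, 8.22 and 7.61, rose to 9.77 without the GUCY2Cmed library of mouse 15, 9.52 without that of mouse 14 and 8.64 without that of mouse 15, and that of 1810006J02Rik rose to 10.26 without mouse 14. Each rested on 4 to 8 GUCY2Cmed counts. The GUCY2Cmed counts of 4930556N09Rik and Gm32255 all lay in mouse 12, that of Pax6os1 in mouse 7 and that of Lhx1os in mouse 15, so none remained without that library. In all, 18 members were higher by more than 5 on the fitted log2 scale, as were 2.89% of all genes tested. All 18 had reached 3 cpm through GUCY2Chi cells only, so no excess over that share is read from this count. The GUCY2Chi library of mouse 15 was the lowest of its group for 39 of the 46 higher members, and it also had the lowest enteroendocrine marker sum, 32425 cpm. The part of cell composition in these levels was not tested.

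Several members named for a neighboring transcription factor gene were compared with that gene. Pax6os1 runs antisense to Pax6, which encodes a homeodomain factor of eye, pancreatic islet and enteroendocrine cells. It had 25.9, 22.8, 4.99, 39.1 and 4.59 cpm in the GUCY2Chi libraries of mice 2, 7, 12, 14 and 15 and 1 count in GUCY2Cmed cells, a ratio of 1190 (counting interval 213 to 47018, adjusted p = 5.1e-05). Pax6 had 100, 91.1, 31.5, 108 and 30.9 cpm in the same GUCY2Chi libraries and 0.0855 to 0.432 cpm in GUCY2Cmed libraries, a log2 fold change of 8.09 (SE 0.57, adjusted p = 4.74e-06). Both genes were lowest in mice 12 and 15. Per kilobase of exon the antisense RNA was the higher of the pair in GUCY2Chi cells, 12 against 6.18 cpm per kb. Lhx1os starts 125 bp from Lhx1, a LIM homeodomain factor gene, and is read away from it. It had 7.79, 5.66, 6.05, 9.71 and 4.34 cpm against 1 count in GUCY2Cmed cells, a ratio of 409 (counting interval 73.1 to 16195). Lhx1 rose by 5.55 (SE 0.72, adjusted p = 0.00021), from 0.173 ± 0.153 to 8.63 ± 4.72 cpm, and in the library of mouse 15 it was at 1.95 cpm where Lhx1os was at 4.34 cpm. Per kilobase, Lhx1os was at 9.61 and Lhx1 at 2.12 cpm in GUCY2Chi cells.

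Hnf4aos was called in neither direction. It overlaps Hnf4a, a nuclear receptor gene of enterocytes, on the opposite strand, at chr2:163493807-163541720, and had 0.873, 0.602, 5.29, 0.616 and 5.54 cpm in GUCY2Chi libraries and 7.27 to 11.1 cpm in GUCY2Cmed libraries. The groups did not overlap, but the log2 fold change of -1.93 (SE 0.63) did not pass the threshold (adjusted p = 0.0305). Its 2 high GUCY2Chi libraries, of mice 12 and 15, were those with the most enterocyte RNA: Apoa1, an enterocyte apolipoprotein gene, had 11981 and 13207 cpm there and 939 to 1424 cpm in the other 3. Without these 2 libraries Hnf4aos passed the threshold. They held its highest GUCY2Chi values, so leaving them out widens the difference by construction. The part of enterocyte RNA in these levels was not tested. Hnf4a itself had 111 ± 18.7 against 135 ± 31.8 cpm (log2 -0.28, adjusted p = 0.292). A list of RNAs named for such genes, matched by the symbols of the table, held 4 members, of which edgeR called 2 higher and none lower and DESeq2 3 higher and 1 lower. The median was 0.58 over all 6 genes of that list that were tested. The list is not complete. Tbx3os2, given below, and 1010001N08Rik, which RefSeq names Gata6os (-0.82, adjusted p = 0.0214), are examples of members outside it. Further members of this kind, some called higher and some not called, are not given here.

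**Figure D2:**
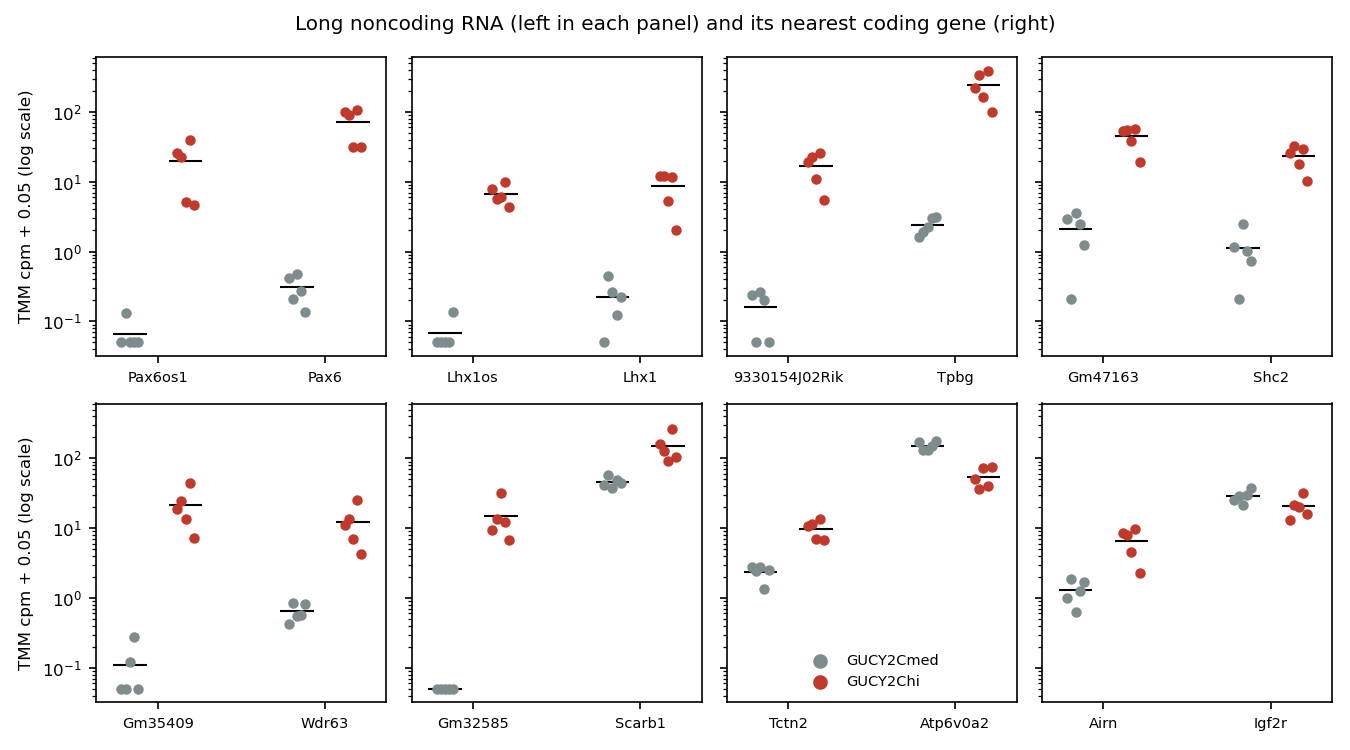
TMM cpm plus 0.05, on a log axis, of 8 members and their nearest protein-coding genes. Points are the 5 GUCY2Cmed (grey) and 5 GUCY2Chi (red) libraries and lines the group means; in the first 6 panels both genes lie higher in GUCY2Chi cells, Atp6v0a2 falls while Tctn2 rises, and the Igf2r groups overlap.

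The nearest protein-coding gene was found for each member from gene starts and ends. Of the members, 82 overlapped it, and the median distance of the others was 4367 bp. In 148 pairs both genes were tested, and 48 of these had a called member. In 15 pairs the neighbor was called in the same direction and in 2 in the opposite one, so 31.2% of the 48 shared a direction with the neighbor. The same count over called protein-coding genes and their nearest coding gene gave 19.7%, but those genes were not held to the level rule. All 12 higher members with a neighbor called the same way had reached 3 cpm through GUCY2Chi cells only, so no difference is read from the shares. With at least 10 counts required in every library, 4 pairs shared a direction. Among the pairs without overlap, 7 of 23 called members did. The kit and the counting are not stated to separate strands, so reads of an overlapping gene on the opposite strand may be counted with the member. Reads of an overlapping gene on the same strand may be counted with it too.

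The other pairs that moved together are given with the role of the coding gene. Tpbg, which encodes the trophoblast glycoprotein and overlaps 9330154J02Rik (chr9:85820241-85844323), rose by 6.70 (SE 0.44) from 2.32 ± 0.657 to 243 ± 121 cpm. 9330154J02Rik had 19, 22.2, 10.9, 26.1 and 5.41 cpm against at most 0.216 cpm and rose by 7.11 (SE 0.69, adjusted p = 3e-05). Pam, the enzyme that amidates peptide hormones, rose by 4.70 (SE 0.45) from 3.88 ± 1.70 to 101 ± 41.7 cpm and was the neighbor of 2 members. One was 1810006J02Rik, 35810 bp away and read in the other direction. The other was B230216N24Rik, which lies inside Pam on the same strand and rose by 2.77 (SE 0.45), from 1.29 ± 0.819 to 8.92 ± 2.68 cpm. Reads of Pam may be counted on B230216N24Rik, which was not tested. Egr2, a zinc finger factor gene 37768 bp from Gm32255, rose by 5.20 and Ets1, a factor gene 147117 bp from Gm27162, by 5.05, beside 5.77 for Gm27162. Gm47163 overlaps Shc2, an adaptor gene, on the opposite strand and had 52.5, 55.8, 38.5, 56.1 and 19.1 cpm in GUCY2Chi libraries against 0.16 to 3.53 cpm. Their log2 fold changes were 4.44 (SE 0.59) for Gm47163 and 4.39 (SE 0.56) for Shc2. Gm35409 ends 686 bp from Wdr63, a dynein-related gene, which rose by 4.33 (SE 0.50). Scarb1, the HDL receptor gene 4272 bp from Gm32585, rose by 1.69 (SE 0.28) and had 46.3 ± 7.98 cpm in GUCY2Cmed cells, where Gm32585 had no count. Gm9856 (1.66, adjusted p = 0.0069) and Tmem42 (1.31), as well as A730020E08Rik (1.57) and Ccser1 (1.21), were smaller changes at overlapping pairs. The call of Gm9856 held in 4 of 10 fits that each left out 1 library, its adjusted p rising to at most 0.0196 without the GUCY2Cmed library of mouse 15, and it was 0.0152 with the mouse as a block. That of A730020E08Rik held in 5 of these fits, with an adjusted p of up to 0.0132 without the GUCY2Chi library of mouse 14 and of 0.0134 with the block, and its groups overlapped.

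**Figure D3:**
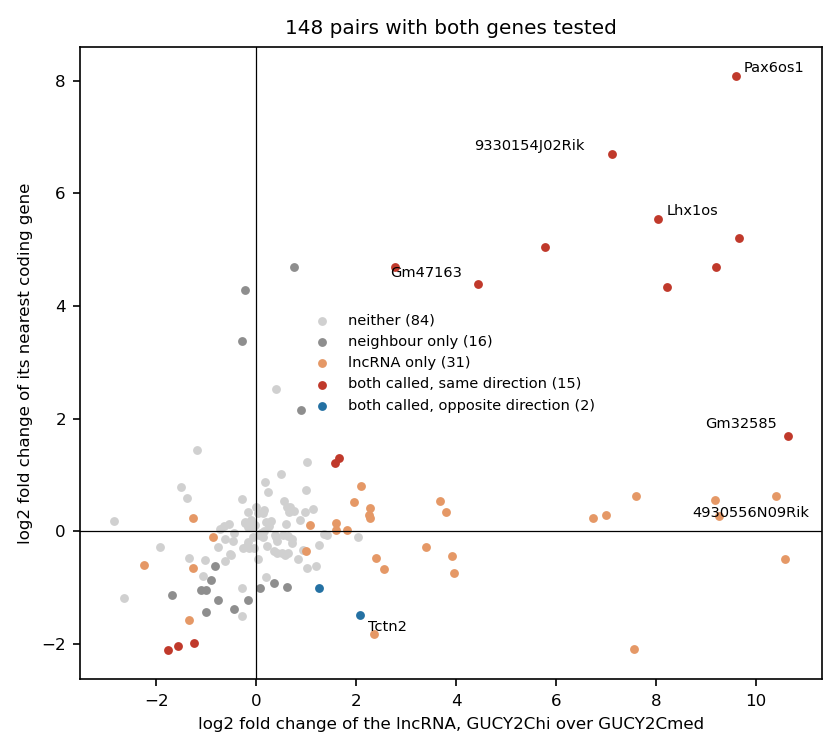
Log2 fold change (GUCY2Chi over GUCY2Cmed) of the nearest protein-coding gene against that of the member, for the 148 pairs in which both were tested. Each point is a pair, colored by which gene passed adjusted p under 0.01; 15 pairs moved the same way and 2 the opposite way, while 31 members were called beside a neighbor that was not.

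Of the 46 higher members, 26 had a neighbor that was tested and not called. Slc6a19os overlaps Slc6a19, the brush-border neutral amino acid transporter gene. It had 13.3, 12.3, 5.97, 17.3 and 3.52 cpm in GUCY2Chi libraries against 0.481 to 1.22 cpm (3.96, SE 0.50, adjusted p = 0.000176), while Slc6a19 had 389 ± 108 against 650 ± 220 cpm (-0.74, SE 0.29, adjusted p = 0.0656). Tbx3os2 ends 371 bp from Tbx3, a T-box factor gene, and had 48.2, 41.0, 41.9, 69.0 and 21.0 cpm against 1.80 to 5.64 cpm (3.68, SE 0.40). Tbx3 had 84.0 ± 40.9 against 58.1 ± 44.4 cpm and an estimate of 0.53 (adjusted p = 0.433). 2610035D17Rik rose by 3.39 (SE 0.35), from 3.55 ± 0.586 to 37.2 ± 18.7 cpm, with Slc39a11 at -0.27. Fam120aos, with 62.7 ± 22.7 against 20.8 ± 3.89 cpm (1.59, SE 0.25), lies 270 bp from Fam120a, which stood at 51.8 ± 13.4 against 51.1 ± 9.05 cpm (0.02, SE 0.21). In these 4 pairs the member passed the threshold and the coding gene did not, and the difference between the 2 genes was not tested. These members were named after their values were seen, as were Gm27162, A730020E08Rik, 9330162012Rik and Gt(ROSA)26Sor. Gt(ROSA)26Sor, the transcript of the Rosa26 locus used for transgenes, had 41.2 ± 11.6 against 20.7 ± 1.84 cpm (0.99, SE 0.21, adjusted p = 0.00351), the smallest change among the 46. Its adjusted p was 0.0107 with the mouse as a block, and the call was lost without either library of mouse 14 (up to 0.0104 without the GUCY2Cmed library).

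In 2 pairs the genes were called in opposite directions. Tctn2, a ciliary transition zone gene that RefSeq lists as coding, had 10.7, 11.4, 6.96, 13.3 and 6.73 cpm in GUCY2Chi libraries and 1.28 to 2.73 cpm in GUCY2Cmed libraries (2.08, SE 0.30, adjusted p = 0.000476). Atp6v0a2, a proton pump subunit gene 838 bp away in the same orientation, had 54.7 ± 18.2 against 153 ± 20.4 cpm (-1.48, SE 0.23, adjusted p = 0.000694). 9330162012Rik rose by 1.25 (adjusted p = 0.00608) and Aldh5a1, which encodes a GABA catabolic enzyme and overlaps it, fell by 1.01 (adjusted p = 0.0065). The call of 9330162012Rik held in 3 of 10 fits without 1 library, with adjusted p up to 0.0163 without the GUCY2Chi library of mouse 14, and was lost with the mouse as a block (0.0236).

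Imprinted long noncoding RNAs are expressed from 1 parental allele. Of 6 tested on the imprinted list 4 were members, of which 2 were higher, none lower and 2 not called, and the median over all 6 was 0.28, beside 0.09 over all genes. Both higher members, Airn and Peg13, reached 3 cpm through GUCY2Chi cells only. Airn had 8.40, 8.01, 4.46, 9.55 and 2.27 cpm in GUCY2Chi libraries and 0.576 to 1.84 cpm in GUCY2Cmed libraries (2.40, SE 0.46, adjusted p = 0.00221). Igf2r, which Airn overlaps on the opposite strand, had 20.5 ± 7.17 against 28.6 ± 5.73 cpm (-0.48, SE 0.24, adjusted p = 0.146). Peg13, inside Trappc9 on the same strand, had 8.80, 15.2, 10.5, 9.47 and 12.4 cpm against 0.722 to 3.81 cpm (2.26, SE 0.41, adjusted p = 0.00179), and Trappc9 stood at 0.30 (SE 0.22). The groups of Airn and Peg13 did not overlap. With the mouse as a block, their adjusted p were 0.0113 and 0.0126. Meg3 and Kcnq1ot1, the others, are described below.

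The 9 members lower in GUCY2Chi cells were lower by 0.87 to 2.25 on the log2 scale, 1 of them by more than 4-fold. 0610005C13Rik, antisense to Bcat2 at chr7:45567794-45575327, had 124, 227, 165, 151 and 164 cpm in GUCY2Cmed libraries and 18.8, 8.74, 71.1, 10.8 and 65.2 cpm in GUCY2Chi libraries of mice 2, 7, 12, 14 and 15. Its log2 fold change was -2.25 (SE 0.56, adjusted p = 0.00891). The higher GUCY2Chi values were again those of mice 12 and 15, as for Apoa1, and these libraries were the highest 2 of the group for 5 of the 9 members. The part of enterocyte RNA in these values was not tested. 1700020I14Rik, which RefSeq names Oip5os1 and which is also known as Cyrano, a conserved regulator of microRNA decay, had 66.4, 75.1, 64.3, 58.7 and 67.5 cpm against 23.0, 18.1, 32.7, 21.6 and 45.1 cpm (-1.24, SE 0.24, adjusted p = 0.00228). Oip5, a centromere protein gene that ends 2010 bp away, stood at 7.92 ± 3.61 against 1.99 ± 1.01 cpm (-1.99, SE 0.45, adjusted p = 0.00519). Of the 14 proliferation markers 12 fell as well, and their part in Oip5 was not tested. Anxa13, an annexin of the gut epithelium that the table calls a processed transcript and RefSeq calls coding, had 203 ± 54.6 against 89.8 ± 24.1 cpm (-1.17, SE 0.24, adjusted p = 0.00308). Ptpmt1, a mitochondrial phosphatase gene with the same discrepancy, had 42.4 ± 4.88 against 23.2 ± 6.20 cpm (-0.87, adjusted p = 0.00564).

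Mir22hg, at chr11:75461539-75466676, is the host of microRNA 22, whose mature arms lie inside it at chr11:75463734-75463755 and chr11:75463772-75463793 (RefSeq, GRCm38.p6, plus strand). They are shown because the host was called lower, with the seed, bases 2 to 8, in capitals. The microRNAs themselves were not measured in these libraries.
mmu-miR-22-5p: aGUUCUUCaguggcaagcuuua
mmu-miR-22-3p: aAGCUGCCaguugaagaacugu

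The host RNA had 72.2, 86.3, 33.5, 52.4 and 39.5 cpm in GUCY2Cmed libraries and 28.8, 19, 20.6, 11 and 32.7 cpm in GUCY2Chi libraries (-1.34, SE 0.33, adjusted p = 0.00818). The highest GUCY2Chi value, 32.7, lay just under the lowest GUCY2Cmed value, 33.5. The call of Mir22hg held in 1 of 10 fits that each left out 1 library. Its adjusted p was at most 0.0289, without the GUCY2Chi library of mouse 7. Tlcd2, which overlaps it on the same strand, had 62.7 ± 11.9 against 21.1 ± 17.8 cpm (-1.57, adjusted p = 0.0276). Gm49172 overlaps Ano6, a calcium-activated scramblase gene, and had 8.67 ± 3.11 against 2.55 ± 1.28 cpm (-1.76, SE 0.40), beside 154 ± 60.4 against 35.7 ± 13.7 cpm for Ano6 (-2.11, SE 0.32, adjusted p = 0.00063). Gm12454 overlaps Car9, a carbonic anhydrase gene, and had 8.18 ± 0.955 against 2.77 ± 1.45 cpm (-1.56, SE 0.35), beside 120 ± 17.4 against 29.3 ± 22.5 cpm for Car9 (-2.04, SE 0.49, adjusted p = 0.007). 1810034E14Rik (-1.27, adjusted p = 0.00556) and 4933404O12Rik (-1.26, adjusted p = 0.00442) fell beside neighbors that were not called, Cdc14b and Ift22. The 9 lower calls lay close to the threshold. With the mouse as a block, 1700020I14Rik and Ptpmt1 kept the call in edgeR (adjusted p = 0.00763 and 0.0097), and the others had adjusted p from 0.0104 for Anxa13 to 0.0219 for 4933404O12Rik. Leaving out GUCY2Chi libraries 2, 7, 12, 14 and 15 in turn gave 2, 4, 9, 2 and 12 lower members, and leaving out GUCY2Cmed libraries 2, 7, 12, 14 and 15 gave 2, 4, 1, 4 and 1. Anxa13 was called in all 10 of these fits, and the highest adjusted p of any of the 9 was 0.0302, for 0610005C13Rik without the GUCY2Chi library of mouse 2.

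**Figure D4:**
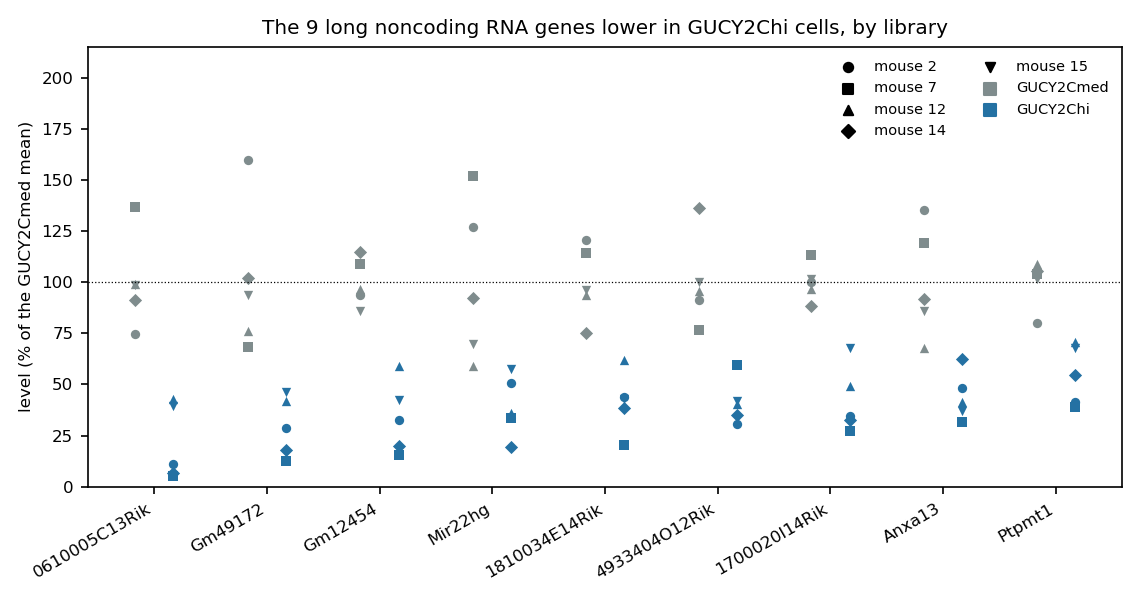
Level of the 9 members lower in GUCY2Chi cells as a percentage of their GUCY2Cmed mean. Points are the 5 GUCY2Cmed (grey) and 5 GUCY2Chi (blue) libraries, with a symbol for each mouse; all GUCY2Chi points lie below all GUCY2Cmed points of the same gene, and mice 12 and 15 are the highest GUCY2Chi points for 0610005C13Rik.

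Among the 10 most abundant members, 3 were lower and 7 were not called. Malat1, a nuclear speckle RNA, had 162, 325, 396, 127 and 337 cpm in GUCY2Chi libraries and 143, 128, 493, 213 and 368 cpm in GUCY2Cmed libraries, and the estimate was 0.00 (SE 0.43, adjusted p = 0.997). Mouse 12 had the highest value in both groups, and the groups overlapped. Gm26917 had 190 ± 145 against 184 ± 123 cpm and ends 13 bp before Rn18s-rs5, a gene related to 18S ribosomal RNA on build GRCm38, and the share of ribosomal reads counted on it was not tested. Cct6a, a chaperonin subunit gene, had 196 ± 39.7 against 218 ± 40 cpm (-0.16, SE 0.20). Ifi30, a lysosomal thiol reductase gene, had 128 ± 31.5 against 154 ± 19.7 cpm (-0.27, SE 0.19), Tmem134 95.7 ± 14.9 against 92.9 ± 10.4 cpm (0.04, SE 0.15) and 1810058I24Rik, which encodes a mitochondrial micropeptide, 63.7 ± 6.90 against 74.6 ± 11.5 cpm (-0.23, SE 0.15). AW112010, an interferon-induced transcript, spread from 25.8 to 155 cpm among GUCY2Chi libraries and from 40.2 to 111 cpm among GUCY2Cmed libraries (0.31, SE 0.45). Per kilobase of exon, several members exceeded Malat1 (38.6 cpm per kb) in GUCY2Chi cells. Among them were Ifi30 (130 cpm per kb), AW112010 (111 cpm per kb), Gm26917 (57.0 cpm per kb) and Cct6a (54.1 cpm per kb).

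Well-studied RNAs were counted by list. Of 11 members on the list of nuclear and well-studied RNAs, 1 was higher (Airn), 1 lower (Mir22hg) and 9 not called, and the median over all 17 tested on that list was 0.25. Neat1, the paraspeckle scaffold, had 19.5 ± 10.7 against 23.7 ± 13.9 cpm (-0.28, SE 0.45, adjusted p = 0.686). 2900097C17Rik, which RefSeq names Norad, a Pumilio-binding RNA, had 52.5 ± 10.4 against 35.3 ± 7.52 cpm (0.57, SE 0.19, adjusted p = 0.0361), Tug1 26.3 ± 7.26 against 18.8 ± 3.75 cpm (0.49, SE 0.22, adjusted p = 0.101) and Dleu2, host of miR-15a and miR-16-1, 9.23 ± 2.21 against 4.83 ± 1.43 cpm (0.93, SE 0.27, adjusted p = 0.0172). These 3 estimates were above 0 without passing the threshold. Among 6 members that host small nucleolar RNAs, edgeR called 0, with 2 at an unadjusted p under 0.05 and 1, Snhg18, called by DESeq2. Snhg18 had 13.2 ± 3.35 against 8.0 ± 1.18 cpm (0.72, SE 0.22, adjusted p = 0.0226), Gas5 12 ± 3.71 against 14.1 ± 4.31 cpm (-0.23), Zfas1 2.64 ± 0.901 against 4.36 ± 0.852 cpm (-0.72, adjusted p = 0.0872) and Snhg17 2.88 ± 2.10 against 4.50 ± 2.07 cpm (-0.64). Snhg4 (0.44) and 2410006H16Rik (0.04) were the others. The list of microRNA hosts held 1 member, Mir22hg, and that of brain-abundant RNAs 3, Peg13 (higher), 1700020I14Rik (lower) and Meg3 (not called).

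In 7 members (4.12%), a share below that of all genes tested (6.69%), levels were low in the same libraries as forebrain neuron RNA. Camk2a, a kinase gene of forebrain neurons, had 1.04 cpm in the GUCY2Cmed library of mouse 7 and 2.02 and 2.54 cpm in the GUCY2Chi libraries of mice 2 and 14, but 16.7 to 81.7 cpm in the other 7 libraries. Slc17a7, a glutamate transporter gene of cortical neurons, had 0.321 to 1.34 cpm in the same 3 libraries and 20.9 to 76.9 cpm in the others. Meg3, an imprinted RNA abundant in neurons, followed them with 0.539 to 1.12 cpm in the 3 libraries and 11.9 to 50.0 cpm in the 7. 6330403K07Rik had 0.403 to 1.31 cpm against 13.7 to 54.5 cpm and Gm10419 at most 0.0802 cpm against 2.31 to 13 cpm. For Gm9866, 1500004A13Rik, 2210408F21Rik and Kcnq1ot1 the 3 libraries also lay below the 7, with the narrowest gap for Kcnq1ot1, 1.39 against 1.88 cpm. All 7 members were selected because every one of the 3 libraries lay below every one of the 7, a pattern chosen after the values were seen. None of the 7 was called by edgeR, DESeq2 or limma-voom, and 0 had an unadjusted p under 0.05 in edgeR. Summed enteric glia markers were also low in the 3 libraries, at 0.269 to 0.924 cpm against 3.68 to 25.1 cpm in the other 7. Summed enteric neuron markers did not split so. They had 48.2 cpm in the GUCY2Cmed library of mouse 15, against 69.1 and 87.0 cpm in the GUCY2Chi libraries of mice 14 and 2. Where the neuron RNA in sorted epithelial cells came from was not tested. Without the 3 libraries, 34 members were higher and 1 was lower, and all 34 were among the 46. With forebrain RNA as a covariate, 54 members were higher and 8 lower, and all 46 remained among the former.

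**Figure D5:**
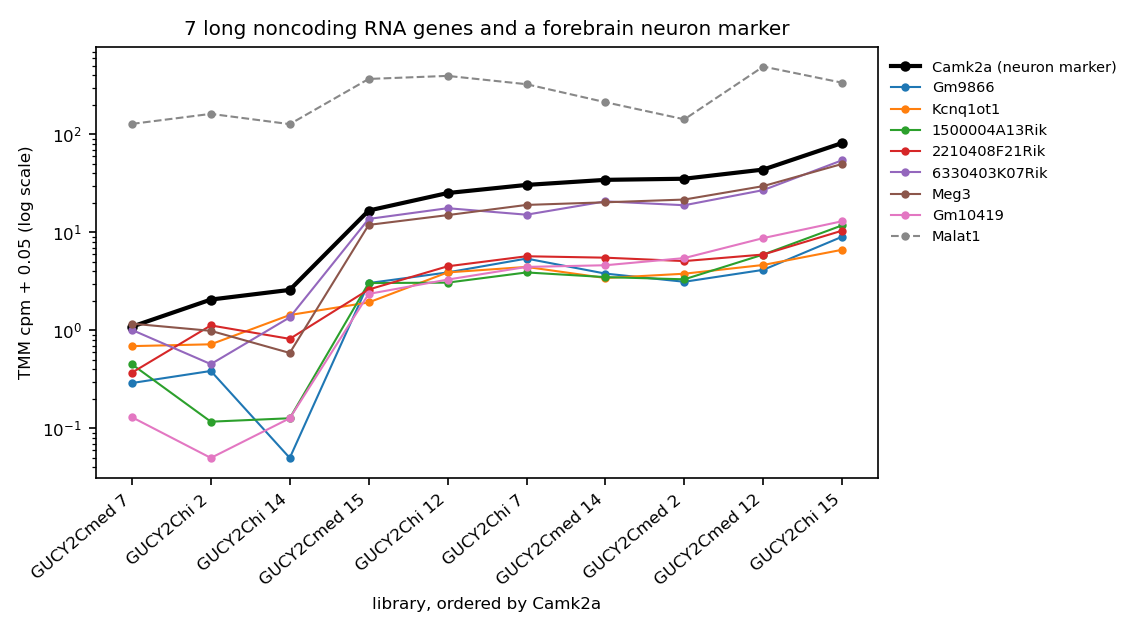
TMM cpm plus 0.05, on a log axis, of the 7 members, Camk2a (black) and Malat1 (dashed) in the 10 libraries ordered by Camk2a. Lines join libraries for the eye only; the 7 members and Camk2a are low in GUCY2Cmed 7, GUCY2Chi 2 and GUCY2Chi 14 and highest in GUCY2Chi 15, whereas Malat1 stays between 127 and 493 cpm.

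The members together took 0.317% ± 0.0105 of the counts in GUCY2Chi libraries and 0.235% ± 0.0202 in GUCY2Cmed libraries (SD, n = 5 each), and the ranges, 0.304% to 0.330% and 0.222% to 0.271%, did not overlap. No test is given for this share, since the level rule admits more genes through the GUCY2Chi group. The 46 higher members took 0.0924% ± 0.0310 against 0.0101% ± 0.00103, and the 9 lower ones 0.0231% ± 0.00543 against 0.0519% ± 0.0107. These subsets were called between the same groups in the same libraries, so the direction of their shares follows from the selection. The 5 most abundant members held 29.9% ± 5.98 of the member counts in GUCY2Chi cells and 39.2% ± 5.91 in GUCY2Cmed cells. The 15 members that RefSeq lists as coding took 0.0745% ± 0.00584 and 0.0770% ± 0.00601. By biotype, 23 of 69 lincRNA, 13 of 44 antisense, 6 of 15 shared-promoter and 3 of 41 processed transcript members were higher, and 2, 3, 0 and 4 were lower. The 1 sense intronic member, Peg13, was higher. Over all genes tested, 13.9% were higher and 8.79% lower. Of the 46 higher members, 38 had reached 3 cpm through GUCY2Chi cells only, so no difference between biotypes is read from these counts.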

How the data were processed

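Libraries were prepared with the NEBNext Ultra II kit, and the paired reads were aligned with STAR by the sequencing provider (Novogene), per the labels. The counts are raw reads per gene as the authors deposited them. Their counter and strand setting are not given in the sources used here. The labels name mm9, but positions in the deposited table overlap RefSeq genes of the same name on GRCm38 for 99.9% of 37775 symbols and on NCBIM37 for 9.67% of 28351, so GRCm38 was used. The authors' 2 comparison tables hold fold changes and p-values made with limma 3.40.6 and edgeR 3.26.8 and were not used.

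Genes above 0.5 cpm in at least 3 libraries were tested with edgeR 4.0.16 (TMM scaling, quasi-likelihood test, Benjamini-Hochberg adjusted p under 0.01) in R 4.3.3. A p without a named tool comes from this fit. Levels are TMM-scaled cpm. DESeq2 1.42.0, limma 3.58.1, other scalings, filters, member rules and left-out libraries served as alternatives. The fitting was tested on simulated data. Sequences, promoters and RefSeq biotypes came from RefSeq GRCm38.p6, and tables were joined with Python 3.11.15 and pandas 2.3.3.

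Libraries with the same number were taken to come from the same mouse, which the labels do not state. The design describes litter-matched mice that were each sorted into both gates. Deviations from the group means correlated at -0.11, -0.223, 0.272, -0.124 and 0.0607 for mice 2, 7, 12, 14 and 15. The GUCY2Chi library matched the GUCY2Cmed library of its own number best for mouse 12 only. The mouse was left out of the main fit and used as a block in an alternative.

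Members named are the 12 with the largest and the 12 with the smallest changes among those called, the 10 most abundant, those on 6 lists of known RNAs, up to 10 with a called neighbor within 10 kb and those next to the level limit. Exceptions are stated. The members and lists were chosen with earlier results of these data known. A result on 1 further antisense member and its neighbor is not reported here.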

Additional observations from a re-analysis of the deposited data

Results flagged for a closer look

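In 3 of 91 groups of 5 libraries of the members named, 1 library stood far from the other 4 (the gap to its nearest neighbor over the whole range of the group exceeded Dixon's 95% critical value), and chance alone gives about 1 in 20 such groups. Gm32585 had 31.5 cpm in the GUCY2Chi library of mouse 12 and 6.73 to 13.7 cpm in the others (gap over range 0.720). Tctn2 had 1.28 cpm in the GUCY2Cmed library of mouse 14 and 2.41 to 2.73 cpm in the others (0.775). Ptpmt1 had 34.0 cpm in the GUCY2Cmed library of mouse 2 and 43.0 to 46.2 cpm in the others (0.739).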

How the results depend on the processing

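The number of higher members, 46, stayed within 1.5 times under every other test, scaling and filter tried, from 32 to 67, and 37 to 54 remained in number when 1 library was left out. It changed with the member rule, to 97 at a mean of 1 cpm, 15 at 10 cpm, 22 without members that overlap a coding gene and 8 with 3 cpm required in each group. The 9 lower calls moved more. They became 19 with DESeq2, 15 with limma-voom, 21 with quality weights, 2 with the mouse as a replicate block in edgeR, 1 on library size alone, 17 without the GUCY2Chi libraries of mice 12 and 15, 1 without the 3 libraries with the least forebrain RNA (chosen after seeing the data), 24 at adjusted p under 0.05, 5 at 10 cpm, 5 without processed transcripts, 3 without overlapping members and 1 to 12 without 1 library. The cause was not tested. With the block, higher members numbered 35 and pairs 10 in edgeR, and 42, 6 lower and 11 pairs in limma-voom. Pairs called in the same direction, 15, became 23 with DESeq2 and with quality weights, 4 with at least 10 counts in every library, 25 at adjusted p under 0.05, 7 among pairs that do not overlap and 10 to 17 without 1 library.

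The ratio of the count share on members, 1.35, moved to 1.26 at 10 cpm, 1.60 without processed transcripts, 1.48 without overlapping members, 1.09 with 3 cpm in each group, 1.53 without members that RefSeq lists as coding or pseudogene (chosen after seeing the data) and 1.12 on TMM-scaled library sizes.

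Estimates changed sign only for members that were not called. Meg3 turned to -0.88 with the edgeR block, -0.17 with the limma-voom block, -0.82 with limma-voom, -2.06 with quality weights, -1.31 with the forebrain covariate and -1.23 without GUCY2Chi mice 12 and 15. In the order quality weights, covariate and those 2 libraries left out, Malat1 was at -0.20, -0.26 and -0.36, Kcnq1ot1 at -0.54, -0.28 and -0.35, and 2410006H16Rik at -0.38, -0.22 and -0.0946, with -0.0346 by limma-voom. Gm26917 was at -0.32 with quality weights and -0.18 without the 2 libraries, Neat1 at 0.29 and 0.0361, and AW112010 at -0.0761 with quality weights. On library size alone, Cct6a was at 0.111, 1810058I24Rik at 0.0462 and Gas5 at 0.0677. Without the 3 libraries with the least forebrain RNA, 1700008J07Rik was at -0.237, Tmem134 at -0.0303, Gm26917 at -0.245 and Gas5 at 0.105. With 1 library left out, estimates ranged from -0.18 to 0.41 for Malat1, -0.38 to 0.35 for Gm26917, -0.0117 to 0.152 for Tmem134, -0.131 to 0.29 for 2410006H16Rik, -0.102 to 0.59 for Kcnq1ot1, -0.88 to 0.43 for Meg3, -0.0895 to 0.25 for 1700008J07Rik and -0.51 to 0.0977 for Neat1. Over all 51 members named and all alternatives, 1067 of 1254 estimates kept their direction and their side of the threshold, 113 lost the call, 23 gained it and 51 changed sign.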

Other observations

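Some RNAs on the lists of known long noncoding RNAs were tested but averaged under 3 cpm. Trp53cor1, a p53-induced RNA, had 0.453 ± 0.186 cpm in GUCY2Chi and 0.0603 ± 0.0945 cpm in GUCY2Cmed libraries (SD, n = 5 each), with 33 and 4 counts in all and a log2 fold change of 2.67 (SE 0.84) that did not pass the threshold (edgeR adjusted p = 0.0253). Snhg20, just under the limit, had 2.91 ± 1.21 against 2.43 ± 0.638 cpm. Snhg11 lay above that limit, with 19.8 ± 23.8 against 18.4 ± 12.4 cpm, but is not a member because the table lists it as protein-coding.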
